A study of Mus musculus with 6 samples.

Results

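The genes described here encode autophagy receptors, the ubiquitin-like ATG8 proteins that those receptors bind, and 3 proteins that act earlier in autophagy. They are Sqstm1, Nbr1, Map1lc3a, Map1lc3b, Gabarap, Gabarapl1, Gabarapl2, Ulk1, Becn1 and Atg5. They were chosen by symbol, and all 10 were listed among the 11835 genes of the deposited table. The samples were C2C12 cells, a mouse myoblast line that forms myotubes in medium low in serum. One group of 3 libraries came from cells transfected with NC siRNA, a negative control (siNC), and the other 3 from cells transfected with CNN3 siRNA against the actin-binding protein calponin 3 (siCNN3). Both groups were differentiated with horse serum, and no library came from cells without siRNA. The labels do not say whether the 3 libraries of a group were separate cultures, so p-values measure the spread between these libraries.

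In macroautophagy, cargo is enclosed in a double membrane, the autophagosome, and is degraded after fusion with lysosomes. The kinase ULK1 starts the process and is restrained by mTORC1 and activated by AMPK. A lipid kinase complex that contains beclin 1 then marks the growing membrane, and the ATG12-ATG5 conjugate helps to attach ATG8 proteins to it. Receptors such as p62 hold ubiquitinated cargo on one side and ATG8 proteins on the other, and are themselves degraded with the cargo. In skeletal muscle, autophagy removes damaged mitochondria and protein aggregates. The values here are RNA levels, which do not measure lipidated ATG8 protein or the rate of degradation.

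The study's supplement gives 1 NC siRNA and 3 CNN3 siRNAs, and which of the 3 was used for sequencing is not stated in the sources used here. The antisense strands are shown because they are the only difference in treatment between the groups, with the seed (bases 2 to 8) in capitals and the overhang left out.
NC siRNA: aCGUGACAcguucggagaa
CNN3 siRNA1: uUGGUGCCaaugccuaggc
CNN3 siRNA2: uUAACGCCaaugucaaugg
CNN3 siRNA3: uUCCGACCcauuggugccc
Among the listed transcripts, each CNN3 siRNA matched Cnn3 over its 19 bases and no other gene, and the NC siRNA matched 0 genes. The 7-base seed match of CNN3 siRNA1 was found in transcripts of Nbr1, Ulk1 and Becn1, 3 of the 10 genes, and in 25.9% of all genes tested. The seed matches of CNN3 siRNA2 and CNN3 siRNA3 were in 0 of the 10 genes, and in 3.41% and 6.79% of all genes tested. That of the NC siRNA was found in Ulk1, and in 8.05% of all genes tested. Sqstm1 transcripts held 0 matches to any of the 4 seeds.

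The values are FPKM, in which the fragments of a transcript are divided by its length and by the size of the library, summed over the listed transcripts of a gene. The number of reads is not given in the sources used here, so the depth and the counting error are unknown. Exact zeros may be failed estimates, because 238 transcripts had 0 in 1 library beside 10 FPKM or more in a replicate of it. Values of a group are given in the order of replicates 1, 2 and 3. The library of siNC replicate 1 stood apart, with 2131 transcripts at 0 against 978 to 1333 in the other libraries and a total of 322621 FPKM against 347064 to 355591. Values without it are given below for Sqstm1, Map1lc3a, Gabarapl2, Ulk1 and Atg5. The targeted gene Cnn3 was between 61.4 and 62.8 FPKM in siNC and between 19.04 and 39.2 FPKM in siCNN3, so the groups did not overlap, but it missed the threshold (adjusted p = 0.0669, limma). The labels call the cells myotubes. Levels of myotube markers ranged widely. In siNC the means were 2.18 FPKM for the myogenic factor gene Myog, 1.78 FPKM for the fusion gene Mymk, 0.680 FPKM for the muscle creatine kinase gene Ckm, 28.4 FPKM for the skeletal actin gene Acta1 and 117 FPKM for the desmin gene Des, while the cell division gene Top2a was between 75.9 and 142.6 FPKM over the 6 libraries. Of 10 myotube markers 9 were listed, their summed FPKM was 173.6 to 205 in siNC and 101 to 122 in siCNN3, and 4 of the 8 tested were called lower. Most of that sum was Des, whose siCNN3 mean was 78.0% of its siNC mean, against 20.1% for Acta1. The 8 tested markers had a median log2 fold change of -1.20, and for 8 of 8 the siCNN3 values all lay below the siNC values. Of 8 blood and immune cell markers 4 were listed, at a sum of 169.6 to 489.5 FPKM in siNC and 37.1 to 51.5 FPKM in siCNN3, nearly all from globin genes. Of 6 markers of dividing or reserve myoblasts 5 were listed, at a sum of 156.8 to 278 FPKM in siNC and 170.1 to 235 FPKM in siCNN3. Nearly all of this came from cell division genes, while Myf5, a myoblast factor gene, had a mean of 4.68 FPKM in siNC and 9.93 FPKM in siCNN3 (log2 fold change 0.88, adjusted p = 0.238, limma). Of 4 adipocyte markers only Fabp4 was listed, at 8.09 to 10.9 FPKM in siNC and 2.17 to 3.13 FPKM in siCNN3. In bulk RNA, fewer cells of a type and less RNA per cell cannot be told apart, and the part of these markers in the values below was not tested.

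The comparison of siCNN3 with siNC asks whether the RNA of these genes differed between cells given CNN3 siRNA and cells given NC siRNA. An effect of less CNN3 and any other effect of the siRNA cannot be told apart in this design. A linear model (limma) of log2(FPKM + 1) was fitted to the 11593 genes whose mean over the libraries reached 0.5 FPKM. Genes with a Benjamini-Hochberg adjusted p under 0.05 over all 11593 were called. Of the 10 genes, Sqstm1 was called higher, 0 were called lower, and 9 did not pass. Over all genes tested, 2.06% were called, 1.73% higher and 0.336% lower. Of those calls 83.7% were higher, or 68.2% with quantile normalization and 77.6% with scaling by median ratios. The median log2 fold change of the 10 genes was -0.04, beside 0.03 over all genes tested, with 5 above 0 and 5 below. For 1 of the 10 genes, Sqstm1, the 3 siCNN3 values all lay above or all lay below the 3 siNC values, compared with 23.1% of all genes tested.

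**Figure D1:**
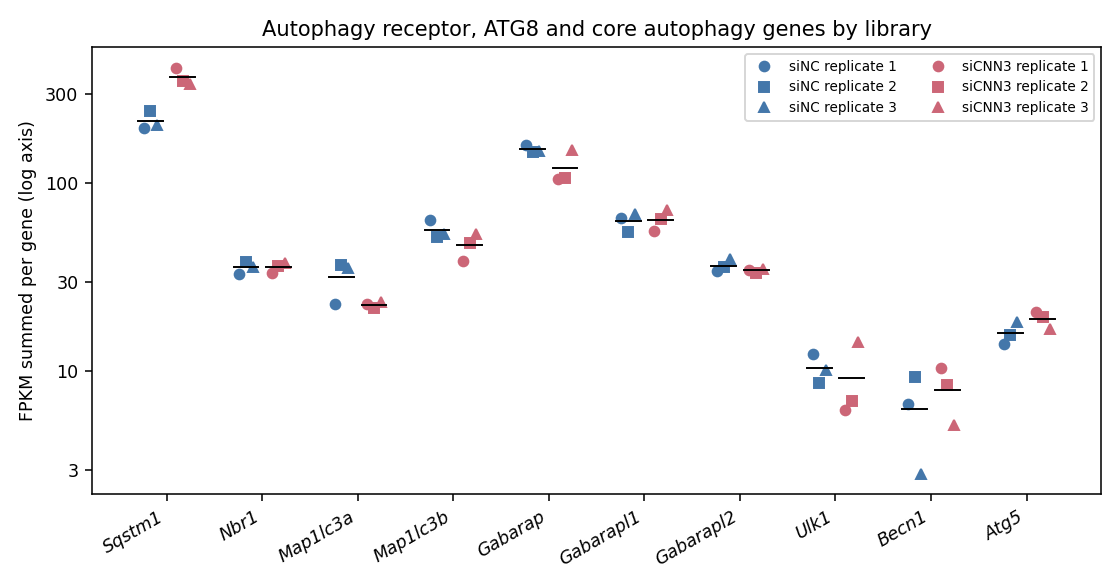
FPKM of the 10 genes in each library on a log axis, with siNC in blue, siCNN3 in red, a symbol for each replicate and black bars for the group means. Sqstm1 is the one gene whose siCNN3 points (339 to 413 FPKM) all lie above its siNC points (198 to 243 FPKM).

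Sqstm1 encodes p62, a receptor that binds ubiquitin chains, ATG8 proteins and the NRF2 inhibitor KEAP1. It lies on chromosome 11 of GRCm38, from 50199366 to 50210827 on the minus strand. The siNC libraries held 198, 243 and 204 FPKM of Sqstm1, against 413, 350.2 and 339 FPKM for siCNN3. All siCNN3 libraries were above all siNC libraries, and the lowest siCNN3 value was above the highest siNC value by more than the range of the siNC group. The group means were 215 ± 24.6 and 367 ± 39.9 FPKM (SD, n = 3 each), and the siCNN3 mean was 170.5% of that of siNC. On the log2 scale Sqstm1 rose by 0.77 ± 0.126 (standard error), with a 95% interval of 0.47 to 1.07 and an adjusted p of 0.0361 (limma with Benjamini-Hochberg adjustment). A two-sided exact permutation test of 3 libraries against 3 gave p = 0.1, the smallest this design allows.
The call of Sqstm1 depended on single libraries and on how spread was shared, since it was lost with no trend (adjusted p = 0.0640, limma) and with the spread of each gene alone (adjusted p = 0.144). It held without siNC replicate 2 (adjusted p = 0.0412) and without siCNN3 replicate 3 (adjusted p = 0.0291, limma), and was lost without siNC replicate 1 (adjusted p = 0.0998), siNC replicate 3 (0.169), siCNN3 replicate 1 (0.140) or siCNN3 replicate 2 (0.140), while its log2 fold change stayed between 0.68 and 0.86.

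Of the 7 annotated Sqstm1 transcripts, 3 were listed. Sqstm1-202, with 2037 nucleotides and 8 exons, had 130.6, 169.5 and 149 FPKM with NC siRNA and 292, 248 and 253 FPKM with CNN3 siRNA. It carried most of the gene's FPKM, between 65.9% and 74.8% in each library, and its groups did not overlap. Sqstm1-201, with 2673 nucleotides, had 65.2, 69.3 and 52.2 FPKM with NC siRNA and 113, 96.8 and 81.0 FPKM with CNN3 siRNA, also without overlap. The short Sqstm1-204 was between 2.36 and 7.13 FPKM, with overlapping groups. Tested as single transcripts, Sqstm1-202 had a log2 fold change of 0.82 (adjusted p = 0.0769) and Sqstm1-201 one of 0.63 (adjusted p = 0.247, limma), and neither passed. Of all transcripts tested, 0.54% were called, and 10.4% had siCNN3 values all above their siNC values. Of the 24 listed transcripts of the 10 genes, 23 were tested and 0 were called by limma, and 3 had siCNN3 values all above siNC, both Sqstm1 transcripts and Nbr1-205. Sqstm1 overlaps Mrnip, a DNA repair gene on the opposite strand, and 18.6% of the 50-base stretches of its listed transcripts are shared with Mrnip. Whether counting used the strand is not stated in the sources used here. Mrnip was at 8.85 to 10.3 FPKM in siNC and at 9.07 to 10.7 FPKM in siCNN3, far below Sqstm1.

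The 250 bases before the RefSeq start site of Sqstm1 are shown because it was the one gene called. They lie at chr11:50210821-50211070 on the minus strand of GRCm38.p6, with GC boxes (GGGCGG on either strand) in capitals.
Sqstm1 promoter: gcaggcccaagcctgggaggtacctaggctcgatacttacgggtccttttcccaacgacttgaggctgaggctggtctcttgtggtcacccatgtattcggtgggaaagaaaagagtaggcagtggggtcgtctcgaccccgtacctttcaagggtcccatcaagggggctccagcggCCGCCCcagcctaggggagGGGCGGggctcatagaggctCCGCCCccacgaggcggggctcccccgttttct
This stretch holds 3 GC boxes, the binding sequence of SP1, and has a GC content of 63.2%. Among RefSeq windows of 300 bases (250 before and 50 after a start site), 35.7% of 32851 hold a GC box. Windows were found for 8 of the 10 genes, and 7 of these hold one. The Sqstm1 window held 0 matches to TGATGNAA, the element bound by ATF4 with C/EBP factors (3.97% of windows), to TGACNNNGC, the antioxidant response element of NRF2 (12.4%), to CACGTG, the E-box of TFEB and its relatives (7.15%), or to TGANTCA, the AP-1 site (7.81%). Both strands were searched, the NRF2 and AP-1 letters can overlap, and a match or its absence says only whether these letters occur in this window.
Among the other windows, Atg5 was the one with CACGTG, at chr10:44268315-44268340, and Map1lc3b the one with TGACNNNGC, just after its start site at chr8:121590432-121590460 (GRCm38.p6, plus strand, matches in capitals).
Atg5: gagcgcttgcCACGTGgtcttggtga
Map1lc3b: gcgagtcaccTGACTCGGCtgcggactga

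Nbr1 encodes a second ubiquitin-binding receptor that works beside p62 (chromosome 11, 101552149 to 101581951, plus strand). Its siNC libraries gave 33.1, 38.2 and 35.9 FPKM, and its siCNN3 libraries 33.2, 36.5 and 37.6 FPKM. The groups covered nearly the same range. Its log2 fold change was 0.0017 with a 95% interval of -0.27 to 0.27 (adjusted p = 0.996, limma), and it turned negative in 6 of 15 alternatives. The ratio of Sqstm1 to Nbr1, in FPKM per FPKM, was 5.99, 6.37 and 5.69 in siNC and 12.4, 9.59 and 9.01 in siCNN3. Of 21 annotated Nbr1 transcripts 6 were listed. One of them, Nbr1-205, was listed at 0 in all siNC libraries, and its siCNN3 values were 0.0581, 11.5 and 0.0214 FPKM. In siCNN3 replicate 2 it held 31.4% of the gene's FPKM, while Nbr1-206, the leading transcript, held 33.3% there and between 44.9% and 51.2% in the other libraries. With transcripts at 0 in any library left out, the log2 fold change of Nbr1 was -0.18 (adjusted p = 0.667).

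**Figure D2:**
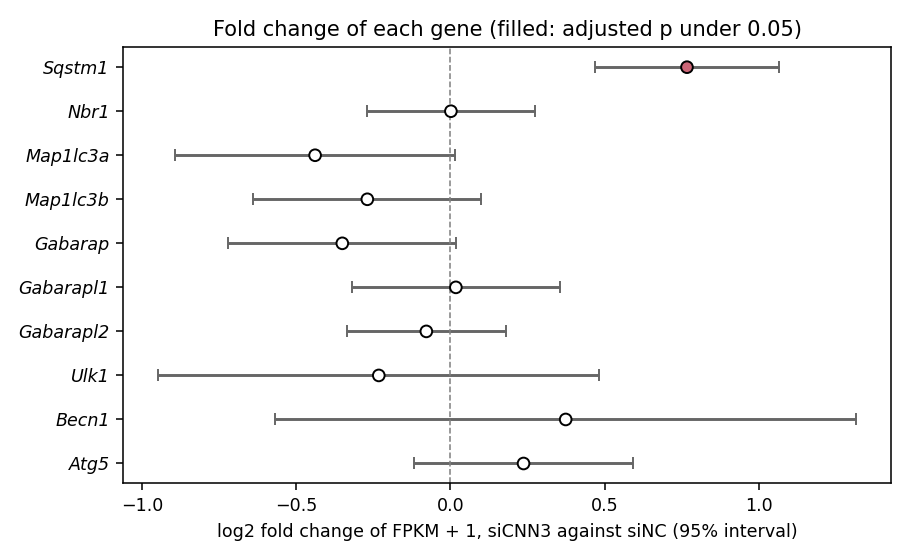
Log2 fold change of FPKM + 1 between siCNN3 and siNC for each gene, with 95% intervals from limma (n = 3 libraries a group) and a filled point where the adjusted p was under 0.05. The interval of Sqstm1, 0.47 to 1.07, lies above 0, and those of the other 9 genes include 0.

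ATG8 proteins are attached to the lipid phosphatidylethanolamine of the autophagosome membrane, where they hold receptors and help closure and fusion. The family has an LC3 branch (Map1lc3a and Map1lc3b here) and a GABARAP branch (Gabarap, Gabarapl1 and Gabarapl2). None of the 5 genes was called by limma, or had an unadjusted p below 0.05, in the test over all genes. Their median log2 fold change was -0.27, with 4 of 5 below 0. All 5 had overlapping groups.
Map1lc3a (chromosome 2, 155276297 to 155278073) read 22.9, 36.8 and 35.4 FPKM in the siNC libraries, beside 22.8, 21.8 and 23.3 FPKM in the siCNN3 libraries. The siCNN3 libraries lay close together, and siNC replicate 1 was among them while siNC replicates 2 and 3 were higher. Its log2 fold change was -0.44 with a 95% interval of -0.89 to 0.02 (adjusted p = 0.325, limma). It ran from -0.65 without siNC replicate 1 (adjusted p = 0.0790) to -0.32 without siNC replicate 2 (adjusted p = 0.507).
Map1lc3b, the LC3 form most used as a marker of autophagosomes (chromosome 8, 121590361 to 121598760), read 63.6, 51.7 and 53.7 FPKM in the siNC libraries, beside 38.6, 48.3 and 53.6 FPKM in the siCNN3 libraries. Replicates 1 and 2 of siCNN3 were below all siNC libraries, and replicate 3 was within their range. Its log2 fold change was -0.27 with an interval of -0.64 to 0.10 (adjusted p = 0.447, limma), and it ran from -0.37 without siCNN3 replicate 3 to -0.14 without siCNN3 replicate 1.

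Gabarap, named for its binding to a GABA receptor subunit (chromosome 11, 69991143 to 69994951), had the highest level of the family. Its values were 160.2, 147 and 149 FPKM for siNC, then 105, 106 and 150.3 FPKM for siCNN3. As with Map1lc3b, replicates 1 and 2 of siCNN3 lay below the siNC range and replicate 3 inside it. The siNC mean was 152 ± 7.04 FPKM and the siCNN3 mean 121 ± 25.7 FPKM (SD, n = 3 each), and the log2 fold change was -0.35 with an interval of -0.72 to 0.02 (adjusted p = 0.332, limma). Without siCNN3 replicate 3 it was -0.52 and passed the threshold (adjusted p = 0.0383, limma). In the 14 other alternatives it did not pass, and it was closest to 0 without siCNN3 replicate 1, at -0.26.
Gabarapl1 (chromosome 6, 129533160 to 129542346) had 65.7, 55.0 and 69.1 FPKM for siNC, then 55.8, 64.7 and 71.7 FPKM for siCNN3. The values of the groups were interleaved, with a log2 fold change of 0.02, an interval of -0.32 to 0.36 (adjusted p = 0.966, limma) and a change of sign under both other scalings. A transcript of its antisense neighbour 1700101I11Rik shares 23.1% of the 50-base stretches of Gabarapl1.
Gabarapl2, also known as GATE-16 (chromosome 8, 111940703 to 111953612), had 34.0, 35.9 and 39.4 FPKM for siNC, then 34.7, 33.5 and 34.9 FPKM for siCNN3. Its spread was small, with a log2 fold change of -0.08 and an interval of -0.34 to 0.18 (adjusted p = 0.767, limma). With 1 library left out it ran from -0.13 without siNC replicate 1 to -0.022 without siNC replicate 3, and it was -0.18 after quantile normalization. Some of its 50-base stretches also occur in transcripts of 4 other genes that were not analysed here. Of those of Map1lc3b 6.64% occur in other genes, and those of Nbr1, Map1lc3a, Gabarap, Ulk1 and Atg5 in 0 other genes.

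Since FPKM is per length, the levels of the genes can be set beside each other within a library. They cover only the listed transcripts, such as 1 of 17 annotated for Becn1 and 2 of 11 for Ulk1. The order of the genes may therefore also depend on which transcripts were listed. The ATG8 genes together summed to 346, 326 and 347 FPKM under NC siRNA and 257, 275 and 334 FPKM under CNN3 siRNA, so that replicate 3 of siCNN3 lay within the siNC range and the other two below it. Gabarap made up 44.8% ± 1.63 of this sum in siNC and 41.6% ± 3.19 in siCNN3 (SD, n = 3). Gabarapl1 made up 18.6% ± 1.58 in siNC and 22.2% ± 1.14 in siCNN3, with a highest siNC share of 19.9% and a lowest siCNN3 share of 21.5%. The LC3 branch made up 25.9% ± 1.09 in siNC and 24.1% ± 1.26 in siCNN3, with overlapping groups. The FPKM of Sqstm1 relative to that sum was 0.572, 0.746 and 0.590 in siNC and 1.60, 1.28 and 1.01 in siCNN3. In siNC the receptor RNA was thus below the ATG8 sum in every library, and in siCNN3 above it in every library. These shares and ratios were not tested.
The order of the mean levels in siNC was Sqstm1, Gabarap, Gabarapl1, Map1lc3b, Gabarapl2, Nbr1, Map1lc3a, Atg5, Ulk1 and Becn1. In siNC the ranges of neighbours overlapped between Gabarapl1 and Map1lc3b, between Gabarapl2 and Nbr1, between Nbr1 and Map1lc3a, and between Ulk1 and Becn1. In siCNN3 the order was the same but for Gabarapl2 and Nbr1, which changed places and whose ranges overlapped.

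**Figure D3:**
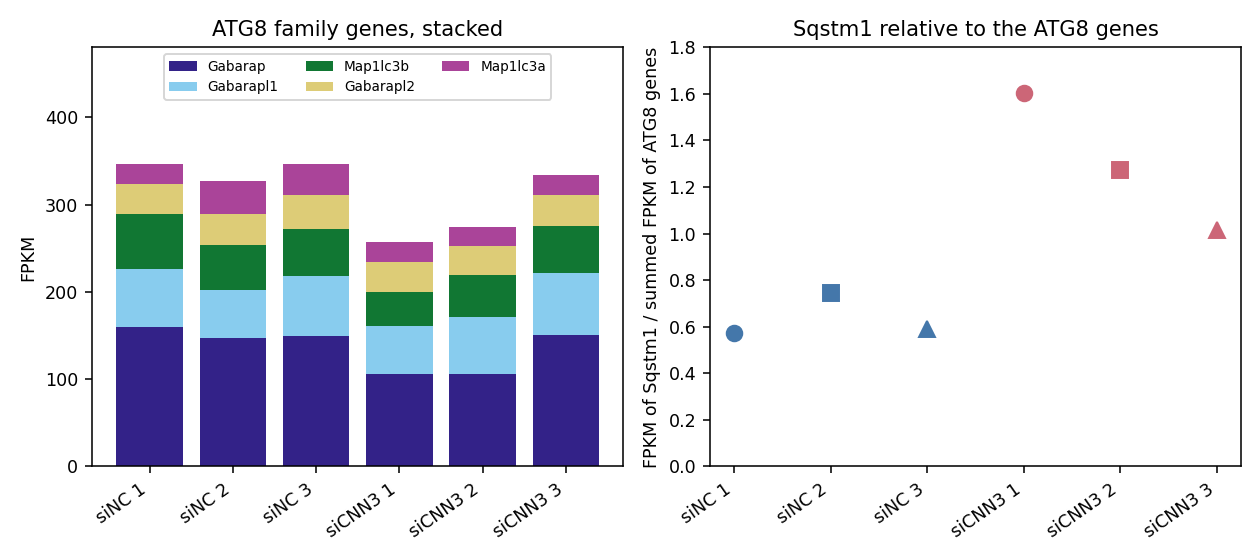
Left, FPKM of the 5 ATG8 genes stacked for each library. Right, FPKM of Sqstm1 divided by that sum, which was 0.572 to 0.746 in the siNC libraries (blue) and 1.01 to 1.60 in the siCNN3 libraries (red), with a symbol for each replicate.

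Ulk1 encodes the kinase that mTORC1 and AMPK phosphorylate to hold back or start autophagy (chromosome 5, 110784488 to 110810097, minus strand). The control libraries had 12.4, 8.62 and 10.1 FPKM of Ulk1, and the siCNN3 libraries 6.26, 6.98 and 14.3 FPKM. Replicates 1 and 2 of siCNN3 were the lowest of the 6 libraries and replicate 3 the highest. Its log2 fold change was -0.23 with a wide interval of -0.95 to 0.48 (adjusted p = 0.751, limma). With 1 library left out it ran from -0.57 without siCNN3 replicate 3 (adjusted p = 0.137) to -0.030 without siCNN3 replicate 1 (adjusted p = 0.985), and was -0.099 without siCNN3 replicate 2 and -0.11 without siNC replicate 1. Of 11 annotated transcripts 2 were listed, and Ulk1-201 held 83.3% of the FPKM in siNC replicate 1, 66.6% in siCNN3 replicate 3 and 43.0% to 55.1% in the other libraries.
Becn1 encodes beclin 1, a scaffold of the lipid kinase complex that BCL2 proteins bind (chromosome 11, 101285952 to 101302286, minus strand). The control libraries had 6.71, 9.28 and 2.84 FPKM of Becn1, and the siCNN3 libraries 10.4, 8.49 and 5.15 FPKM. Its spread was the widest in siNC, with an SD of 51.7% of the mean, and its log2 fold change was 0.37 with an interval of -0.57 to 1.32 (adjusted p = 0.692, limma). Only Becn1-205, 1 of 17 annotated transcripts, was listed, and 45.7% of its 50-base stretches are shared with Cntd1 on the opposite strand, which was not analysed here. The log2 fold change of Becn1 ran from -0.030 without siNC replicate 3 to 0.68 without siNC replicate 2.
Atg5 encodes the protein that, joined to ATG12, attaches ATG8 proteins to lipid (chromosome 10, 44268358 to 44364291, plus strand). The control libraries had 14.0, 15.6 and 18.3 FPKM of Atg5, and the siCNN3 libraries 20.7, 19.5 and 16.7 FPKM. Replicates 1 and 2 of siCNN3 were above all siNC libraries and replicate 3 was not. Its log2 fold change was 0.24 with an interval of -0.12 to 0.59 (adjusted p = 0.490, limma), and it ran from 0.15 without siNC replicate 1 to 0.34 without siNC replicate 3.

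**Figure D4:**
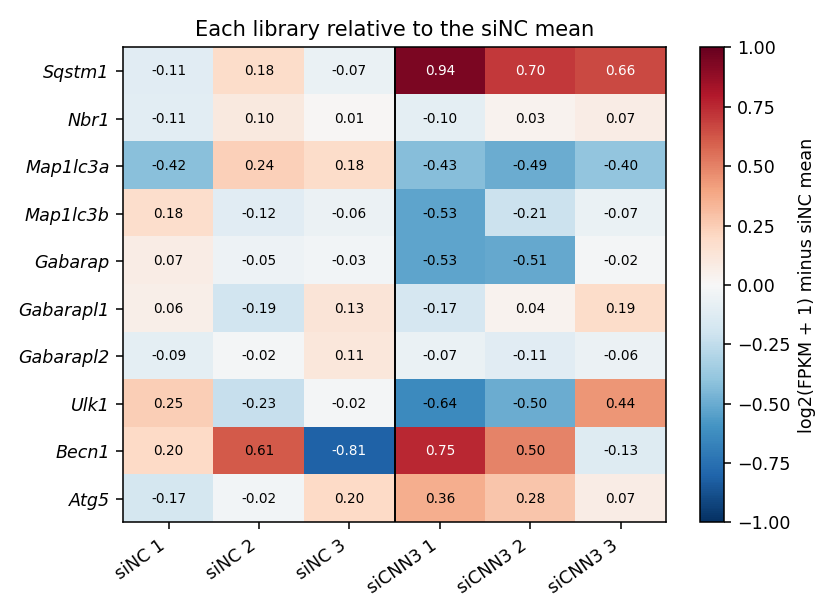
Log2(FPKM + 1) of each gene in each library minus its siNC mean, from blue (lower) to red (higher). Sqstm1 is between 0.66 and 0.94 in the siCNN3 libraries, while Gabarap is at -0.53, -0.51 and -0.02 and Ulk1 at -0.64, -0.50 and 0.44 in that group.

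Libraries within a group differed for some of these genes, while for Nbr1 and Gabarapl2 the SD was at most 7.50% of the group mean. For Map1lc3b, Gabarap, Ulk1 and Atg5, siCNN3 replicate 3 lay within or beyond the siNC range on the side away from the other 2 siCNN3 libraries. Map1lc3b, Gabarap and Ulk1 were highest in siNC replicate 1 among siNC libraries and highest in siCNN3 replicate 3 among siCNN3 libraries, which was so for 15.2% of all genes tested. For Sqstm1 and Atg5 the same libraries were the lowest, as for 39.0% of all genes tested. This pattern was chosen after the values were seen. The cause of the difference between libraries was not tested. By the distance between profiles of log2(FPKM + 1) over the 6 libraries, each relative to its siNC mean, the genes most like Sqstm1 were Wdr75, Rsrp1 and Tfap4, at root-mean-square distances of 0.0848, 0.0966 and 0.0966. Wdr75, Rsrp1 and Tfap4 lay between 3.02 and 8.62 FPKM, far below Sqstm1, and were not called (adjusted p = 0.126, 0.0893 and 0.106, limma). Among the other 9 genes, Atg5 was the nearest to Sqstm1, at a distance of 0.403, and Map1lc3a the farthest, at 0.874.

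Of 90 other genes of the pathway in 8 lists, 89 were listed and tested, and Calcoco2 was not analysed here. By limma, 0 of them were called higher and 0 lower. With no adjustment, p was under 0.05 for 7 genes with higher and 4 with lower values, beside 9.94% and 6.14% of all genes tested. The groups did not overlap for 11 higher and 7 lower genes, beside 13.8% and 9.35% of all genes tested. The median log2 fold change of the 89 genes was -0.01. Without siCNN3 replicate 3, Wipi1, a reader of the lipid made by the beclin 1 complex, was called lower (-0.63 on the log2 scale, adjusted p = 0.0472, limma), and in the other alternatives 0 of them were called. In the list with the ULK1 partners, 4 genes lay between -0.10 and 0.18, with the lowest p for Rb1cc1, which encodes the scaffold FIP200 (adjusted p = 0.671).
In the lipid kinase complex, 7 genes had a median of -0.16, and the lowest p was that of Rubcn, an inhibitor of autophagosome maturation (log2 fold change 0.38, adjusted p = 0.377). Of 10 conjugation genes 8 were above 0. Atg12, which is joined to ATG5, had 28.1, 26.9 and 29.9 FPKM for siNC, then 34.3, 33.5 and 41.7 FPKM for siCNN3 (log2 fold change 0.35, adjusted p = 0.244, limma). Of 11 genes of the growing membrane and its lipid transfer, Atg9b had the lowest p, with 12.4, 13.1 and 15.6 FPKM for siNC, then 8.51, 9.14 and 9.50 FPKM for siCNN3 (log2 fold change -0.54, adjusted p = 0.111, limma). The groups of Atg12 and of Atg9b did not overlap, and neither passed the threshold.
Of 18 other receptor genes tested, 10 were above 0 and 8 below, with a median of 0.02. The largest difference was in Stbd1, a receptor for glycogen, with 24.3, 10.2 and 18.4 FPKM for siNC, then 39.1, 30.9 and 46.6 FPKM for siCNN3 (log2 fold change 1.16, interval 0.42 to 1.90, adjusted p = 0.128, limma). Of 14 fusion genes the lowest p was that of Epg5, a tether between autophagosome and lysosome (log2 fold change 0.48, adjusted p = 0.166). In the lysosome list, with 15 genes and a median of -0.12, the protease gene Ctsb had 243, 289 and 266 FPKM for siNC, then 352, 332 and 341 FPKM for siCNN3 (log2 fold change 0.36, adjusted p = 0.130, limma). Of 10 genes of mTORC1 and AMPK, all had overlapping groups, and the lowest p was that of the mTOR inhibitor Deptor (log2 fold change -0.29, adjusted p = 0.412).

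**Figure D5:**
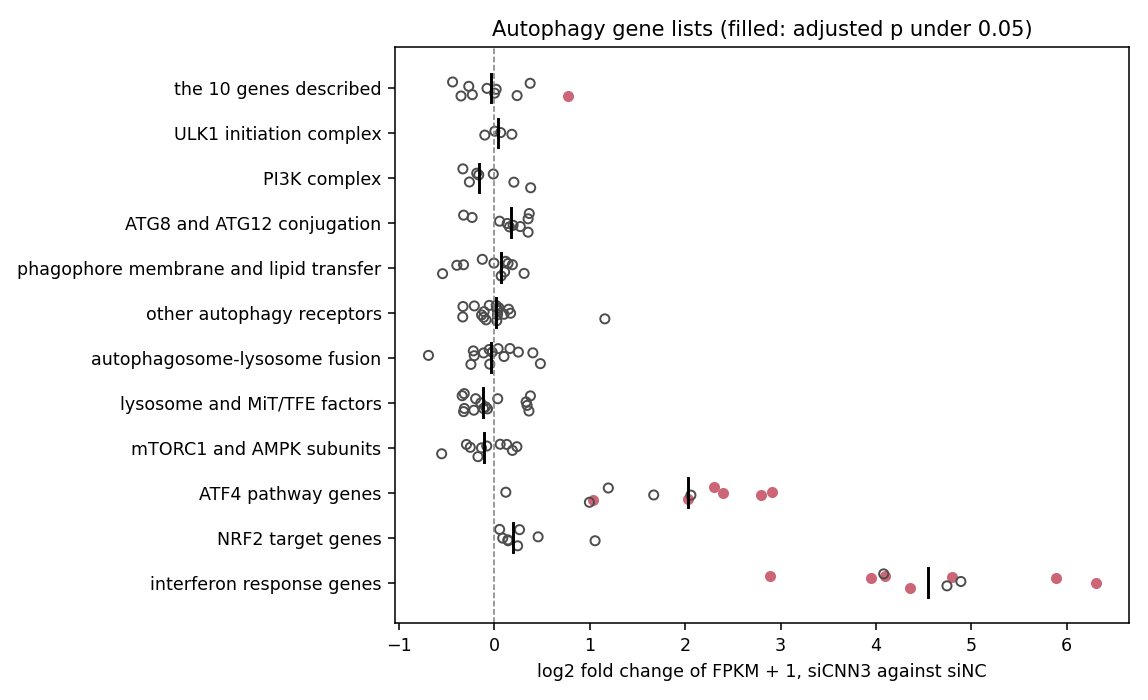
Log2 fold change of FPKM + 1 between siCNN3 and siNC for each gene of the lists, one point a gene, filled where the adjusted p was under 0.05, with a black bar at the list's median. The 10 genes as one row and the 8 other autophagy lists have medians between -0.16 and 0.18 and no filled point but Sqstm1, while the ATF4 pathway and interferon lists have medians of 2.03 and 4.55.

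Gene lists outside autophagy were set beside Sqstm1. ATF4, a transcription factor made when amino acids or protein folding fail, and NRF2, that of the antioxidant response, are known activators of Sqstm1, and interferon response genes were among the genes called. Of 11 genes of the ATF4 pathway, 6 were called higher by limma and 11 were above 0. Their mean on the log2 scale, relative to siNC, was -0.06, 0.0030 and 0.06 for siNC and 1.99, 1.85 and 1.47 for siCNN3. Their summed FPKM came to 430, 418 and 439 for siNC and 1390, 1242 and 1255 for siCNN3, so the order of the siCNN3 libraries depended on the measure. Chac1, an enzyme that degrades glutathione, rose by 2.79 on the log2 scale, Asns, asparagine synthetase, by 2.30, and the transcription factor gene Atf3 by 2.03 (adjusted p = 0.00473, 0.00972 and 0.0099, limma). Of 8 genes of the NRF2 response, limma called 0, while 2 had an unadjusted p below 0.05 and 8 were above 0, with a median of 0.19. Srxn1, which repairs oxidised peroxiredoxins, had 33.0, 40.8 and 36.3 FPKM for siNC, then 50.3, 47.8 and 53.8 FPKM for siCNN3 (log2 fold change 0.46, adjusted p = 0.126, limma).
Of 10 interferon response genes 7 were called higher. Their summed FPKM came to 21.8, 389 and 105 for siNC and 3444, 3253 and 1740 for siCNN3. Cxcl10, Rsad2 and Irf7 had the lowest p, with log2 fold changes of 6.30, 4.80 and 4.36. In siNC, replicate 2 had the highest summed interferon genes and also the highest Sqstm1. The same library was also highest in siNC for the summed blood and immune, myotube, and dividing or reserve myoblast markers. It was not highest for the summed ATF4 or NRF2 genes or for Fabp4. The part of ATF4, NRF2 and interferon genes in the level of Sqstm1 was not tested, and without siNC replicate 2 its log2 fold change was 0.86.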

How the data were processed

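RNA of 6 C2C12 libraries was sequenced, and the authors deposited FPKM for 24023 Ensembl transcripts. The submitters' processing notes name Bowtie 0.12.2. The program and annotation behind the FPKM and the number of reads are not given in the sources used here, so the depth is unknown. Identifiers without their version matched GENCODE M21 (GRCm38) for 23949 transcripts, FPKM were summed by gene symbol, and the other 74 transcripts were left out.

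The model was fitted with limma 3.58.1 in R 4.3.3, with a trend of variance on mean level, a pseudocount of 1 and a minimum mean of 0.5 FPKM. Fold changes on the log2(FPKM + 1) scale understate those of low genes. The fit was tested on simulated data. Alternatives changed the pseudocount (0.1), the filter (none, or 5 FPKM), the scaling (median of ratios, quantiles), the trend, the sharing of spread between genes, the handling of transcripts at 0 and the use of the replicate number as a block, or left out each library.

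The 10 genes and the lists were chosen with earlier results of these data known, and motifs and seed matches were chosen after the files were examined. All 10 genes are named. From each autophagy list and from the ATF4, NRF2 and interferon lists, the 3 called genes with the lowest p are named or, with 0 called, the gene with the lowest p. Cell type markers and Wipi1, which was called without siCNN3 replicate 3, were named outside this rule. Listed transcripts were compared by 50-base stretches with all GENCODE transcripts on both strands. Promoter windows came from RefSeq and siRNA sequences from the study's supplement.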

Additional observations from a re-analysis of the deposited data

How the results depend on the processing

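The higher level of Sqstm1 kept its direction in all 15 alternatives, with log2 fold changes from 0.65 to 0.86, and passed the threshold in 8 of them. Of the 10 genes, 1 was called, against 0 with limma without a trend, 0 with the spread of each gene alone and 0 to 2 with 1 library left out. Deviations of same-numbered libraries correlated at -0.28, 0.31 and -0.02 over 11593 genes, and no siNC library correlated best with its own number. For siNC replicate 2 the margin was small, 0.315 with siCNN3 replicate 1 against 0.314 with replicate 2. In turn, siCNN3 replicate 2 correlated best with siNC replicate 2. With 3 libraries a group, this does not settle whether the numbers pair the libraries. With the replicate number as a block, 0 of the 10 genes were called (Sqstm1 adjusted p = 0.124), 68 of all genes against 239, and 7 of the ATF4, NRF2 and interferon genes against 13. With transcripts at 0 left out, 152 of all genes and 7 of these were called, and with the spread of each gene alone 0 and 0, where the fit has few samples for each gene. Leaving out 1 library gave 20 (without siNC replicate 3) to 602 (without siCNN3 replicate 3) of all genes, 1 to 17 of the ATF4, NRF2 and interferon genes, 0 to 1 of the 89 pathway genes, and log2 fold changes of Cnn3 from -1.46 (without siCNN3 replicate 2, adjusted p = 0.0477) to -0.95. With median-of-ratios scaling 1 transcript of the 10 genes was called, Sqstm1-202. Signs turned for Nbr1, Gabarapl1 and, without siNC replicate 3, Becn1. Nbr1 was at -0.035 with median-of-ratios scaling, -0.11 with quantile normalization, -0.18 with transcripts at 0 left out and -0.052 to 0.053 with 1 library left out. Gabarapl1 was at -0.020 and -0.071 under the 2 scalings and at -0.078 to 0.11 with 1 library left out, and Becn1 at -0.030 to 0.68. Causes of these differences were not tested. The depth is unknown, so its part in the number of calls was not tested.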
